A study of Ovis aries with 12 samples.

Results

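The genes of heme synthesis and heme breakdown were followed across bulk RNA-seq libraries of sheep (Ovis aries) embryos. They were picked by gene name: ALAS1, ALAS2, ALAD, UROS, UROD, CPOX and FECH for synthesis, and BLVRA and BLVRB for the last step of breakdown. Of these 9 names, 8 stood as symbols among the 26247 genes listed. The entry for BLVRA carries an identifier in place of a symbol and was recognised through its NCBI gene number, so BLVRA is described beside the 8 enzymes and stays out of their counts. All 8 enzymes, and BLVRA, passed the expression filter, which kept the 14595 genes that reached 1 FPKM in 3 or more of the 12 libraries.

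Embryos of 2 breeds of Mongolian sheep had been dissociated with enzymes before RNA was extracted. The breed under study was the Hulunbuir Short-tail Sheep, with Ujumqin sheep as the control, and embryos of each breed were taken at day 16 and at day 25. Each of the 4 groups held 3 libraries, and the labels name no treatment, transgene or genotype beyond the breed. Nothing in them tells if the 3 came from different animals or from pooled embryos. The p-values therefore reflect only how these samples spread, which may be technical.

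Heme is an iron-carrying porphyrin ring that binds oxygen in hemoglobin and electrons in cytochromes. Its synthesis starts in the mitochondrion, where an aminolevulinate synthase joins glycine to succinyl-CoA. It goes on in the cytosol through ALAD, UROS and UROD, among others, and ends in the mitochondrion with CPOX, PPOX and FECH. ALAS1 is the synthase of most tissues and ALAS2, on the X chromosome, that of red cell precursors, which in early embryos arise in the yolk sac. Heme oxygenases (HMOX1 and HMOX2) open the ring to biliverdin, and the biliverdin reductases BLVRA and BLVRB reduce it to bilirubin.

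The libraries held 43131962 to 55455815 gene counts at day 16 and 30464606 to 39643588 at day 25, and those of single enzymes ran from 288 to 28006. Over all genes the replicates varied more at day 16 (biological coefficient of variation 43.8%) than at day 25 (18.1%). For the enzymes themselves, BLVRA included, the median coefficient of variation of FPKM was 38.0% in Ujumqin and 17.0% in Hulunbuir at day 16, against 7.29% and 2.68% at day 25. Replicate 3 of Ujumqin day 16 stood apart, with the highest FPKM of its group for each enzyme except ALAS1, for which it had the lowest. Without that library the day 16 breed differences of the 9 enzymes ran from -3.17 (ALAS2) to -0.42 (UROD) on the log2 scale, and those of FECH (adjusted p = 0.04) and BLVRB (adjusted p = 0.0312) passed the test. FPKM, a level per length of gene and size of library, are given as deposited. Log2 changes come from counts scaled by TMM, each with its standard error and with an adjusted p from edgeR's quasi-likelihood test. On the deposited FPKM scale the median gene was 0.29 (log2) higher in Hulunbuir than in Ujumqin at day 25, a shift that TMM scaling takes out.

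At day 25, heme synthesis genes were higher in Hulunbuir than in Ujumqin embryos along the whole chain from ALAS2 to FECH, and so was BLVRB. Of the 8 enzymes, 7 were higher, 0 were lower and ALAS1 did not pass the test. Over all genes tested, 23.3% were called higher and 22.7% lower in this comparison. The median change of the 8 was 1.79 on the log2 scale, beside 0.03 over all genes tested. ALAS2 had the largest difference, 7.34-fold, followed by FECH with 5.33-fold, and UROD had the smallest of those that passed, 2.001-fold. In embryos sequenced in bulk, fewer cells of a type and less RNA per cell cannot be told apart.

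At day 16 the order of the breeds was the other way round for most of these genes, but no enzyme passed the test. Among the 8 enzymes, 7 had all 3 Hulunbuir libraries below all 3 Ujumqin libraries after TMM scaling, a pattern found in 13.2% of all genes tested. The median change of the 8 was -1.58 on the log2 scale, beside 0.01 over all genes. Very few genes were called at this age, 0.0137% higher and 0.00685% lower, although 2955 genes had an unadjusted p under 0.05, 6 of the 8 enzymes among them (ALAS2, ALAD, UROS, CPOX, FECH and BLVRB). With the replicate number as a block, 3 of the 8 were lower (ALAS2, FECH and BLVRB), where 1.12% of all genes were. With a spread shared over the 12 libraries, 6 were lower, where 8.39% of all genes were.

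Between day 16 and day 25 most of the enzymes rose in Hulunbuir, whereas 4 fell in Ujumqin. In Hulunbuir embryos 6 of the 8 enzymes rose from day 16 to day 25 and 0 fell, while ALAS1 and CPOX did not pass the test. Over all genes 18.9% rose and 21.6% fell in that breed. In Ujumqin embryos 4 of the 8 fell (ALAS2, ALAD, CPOX and FECH) and 0 rose, where 30.7% of all genes rose and 32.9% fell. The calls of ALAS2 and ALAD were lost when certain single libraries were left out, as given below, and those of CPOX and FECH were not. The median change with age was 2.22 in Hulunbuir and -0.64 in Ujumqin on the log2 scale, beside -0.04 and -0.07 over all genes. The age and breed comparisons share libraries, so their values stand side by side here and are not counted as separate evidence.

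The breed by age interaction, which is the breed difference at day 25 minus that at day 16, was tested over all 12 libraries. It was positive for 7 of the 8 enzymes and negative for 0, and ALAS1 did not pass. Over all genes 8.89% had a positive and 10.3% a negative interaction. The median of the 8 was 3.30 on the log2 scale, beside -0.03 over all genes, and the values ran from 1.60 for UROD to 6.52 for ALAS2 among those that passed. The same 7 were called when any single library was left out.

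**Figure D1:**
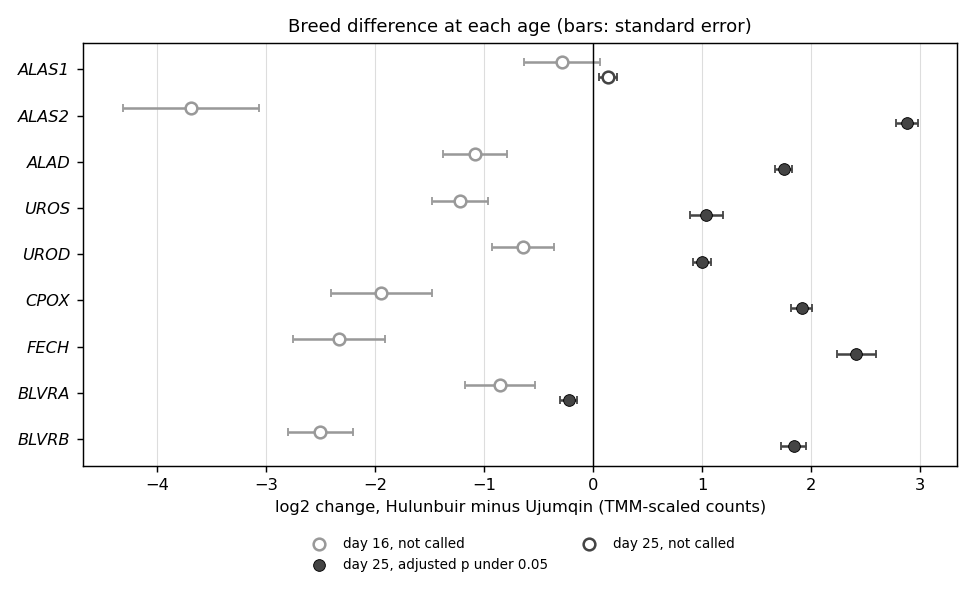
Breed difference (log2 change, Hulunbuir minus Ujumqin, TMM-scaled counts) of each enzyme at day 16 (grey) and day 25 (black), with standard errors and filled symbols where the adjusted p was under 0.05. All 9 day 16 values lie left of 0, and 8 of the 9 day 25 values lie right of 0, BLVRA being the exception.

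**Figure D2:**
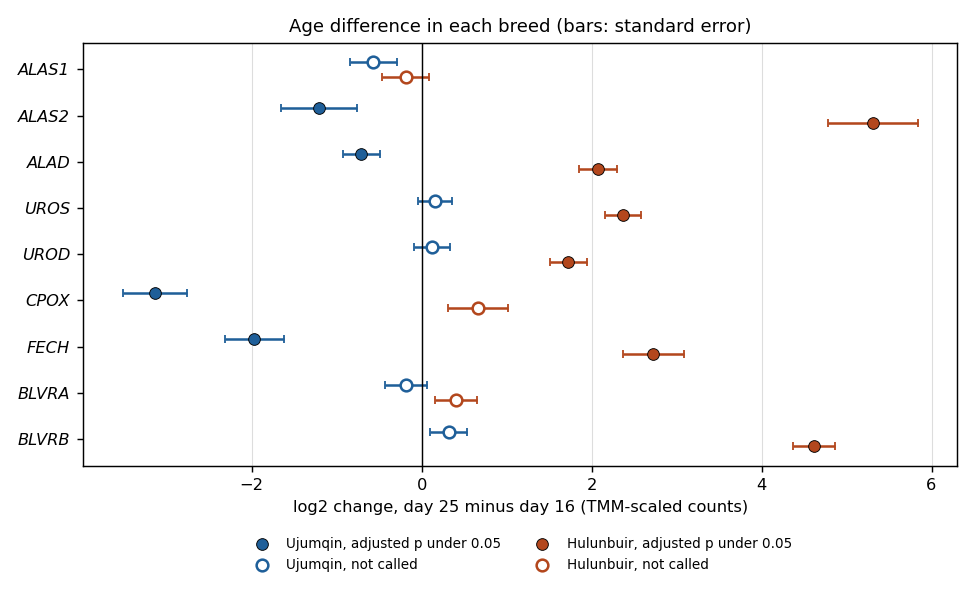
Age difference (log2 change, day 25 minus day 16, TMM-scaled counts) of each enzyme in Ujumqin (blue) and Hulunbuir (red) embryos, with standard errors and filled symbols where the adjusted p was under 0.05. ALAS2 and BLVRB lie farthest right in Hulunbuir, at 5.31 and 4.61, and CPOX farthest left in Ujumqin, at -3.14.

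ALAS1, which makes aminolevulinate in tissues at large, lies on chromosome 19 (Oar_v3.1, 48656108 to 48670752, minus strand). At day 16 it was at 29.7, 51.8 and 24.1 FPKM in the 3 Ujumqin libraries and at 27.6, 34.8 and 28.1 in the 3 Hulunbuir libraries. The day 25 levels were 22.1, 21.0 and 22.2 FPKM in Ujumqin and 31.0, 27.1 and 31.9 in Hulunbuir. The breeds overlapped at day 16, whereas at day 25 each Hulunbuir library was above each Ujumqin library in FPKM. After TMM scaling the day 25 libraries overlapped and the difference was 0.13 ± 0.08 (adjusted p = 0.217). On log2(FPKM + 1) limma gave 0.44 (adjusted p = 0.00457), beside the shift of 0.29 that all genes showed on the FPKM scale. Between breeds at day 16 the value was -0.29 ± 0.35 (adjusted p = 0.658), and the interaction 0.38 ± 0.39 (adjusted p = 0.518). From day 16 to day 25 the value was -0.57 ± 0.28 in Ujumqin (adjusted p = 0.0907), and -0.19 ± 0.28 in Hulunbuir (adjusted p = 0.612). Without replicate 3 of Ujumqin day 16 the Ujumqin age value was -0.81 and passed (adjusted p = 0.0153). ALAS1 varied least of the 9 enzymes, with 1.62 times as much FPKM in its highest group (Ujumqin day 16) as in its lowest (Ujumqin day 25).

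ALAS2, the red cell synthase and the step that sets the pace of heme synthesis there, lies on chromosome X (47828609 to 47849887, plus strand). At day 16 its level was 80.9, 58.3 and 172 FPKM in Ujumqin and 2.96, 10.6 and 11.35 FPKM in Hulunbuir. The lowest Ujumqin library was well above the highest Hulunbuir library. At day 25 its level was 36.9, 42.7 and 40.0 FPKM in Ujumqin and 363, 373 and 369 FPKM in Hulunbuir. The breeds were again apart, with Hulunbuir now the higher. The day 16 difference was -3.69 ± 0.62 (adjusted p = 0.1), and it passed with the replicate block (adjusted p = 0.0497) and with 1 shared spread (adjusted p = 0.00243). The day 25 difference was 2.88 ± 0.10 (adjusted p = 9.14e-07). In Hulunbuir, ALAS2 rose 39.6-fold with age (5.31 ± 0.53, adjusted p = 5.29e-05). In Ujumqin it fell by 1.21 ± 0.45 on the log2 scale (adjusted p = 0.0332). That fall did not pass without replicate 3 of day 16 (-0.70, adjusted p = 0.164) or without replicate 1, 2 or 3 of day 25 (adjusted p = 0.0856, 0.06 and 0.0686). The 4 groups did not overlap in FPKM, in the order Hulunbuir day 25, Ujumqin day 16, Ujumqin day 25 and Hulunbuir day 16. Between the highest and the lowest group mean (368 ± 4.98 and 8.29 ± 4.63 FPKM, SD, n = 3) lay 44.4 times, the widest range of the 9 enzymes.

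The make-up of the synthase step was read as the ALAS2 share of the summed FPKM of ALAS1 and ALAS2. At day 16 the share was 73.1%, 53.0% and 87.7% in Ujumqin and 9.69%, 23.3% and 28.8% in Hulunbuir. In day 25 libraries it was 62.55%, 67.0% and 64.3% in Ujumqin and 92.1%, 93.2% and 92.0% in Hulunbuir. ALAS1 was thus the more abundant synthase transcript in the 3 Hulunbuir day 16 libraries, and ALAS2 in the other 9. Exact two-sided permutation tests gave p = 0.1, the smallest that 3 against 3 libraries allow, for each breed difference and for age in Hulunbuir, and p = 0.7 for age in Ujumqin (adjusted p = 0.114 and 0.7 over the 8 tests of this share and the BLVRB share below).

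**Figure D3:**
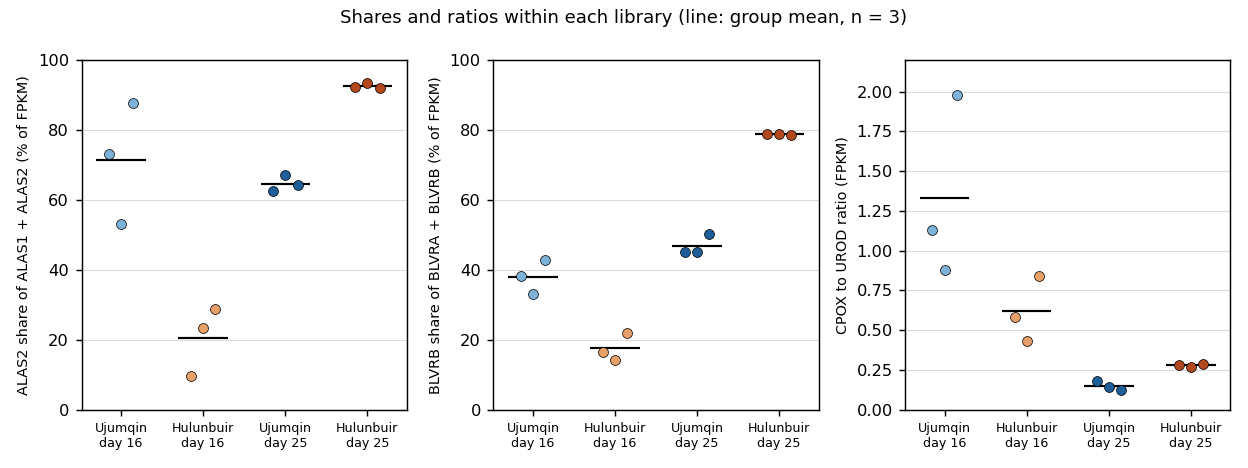
ALAS2 share of ALAS1 plus ALAS2 and BLVRB share of BLVRA plus BLVRB (percent of FPKM), and the ratio of CPOX to UROD FPKM, in each of the 12 libraries (points) with group means (lines). Both shares are lowest in Hulunbuir day 16 libraries and highest in Hulunbuir day 25 libraries, whereas the CPOX to UROD ratio is below 0.29 in each day 25 library and above 0.43 in each day 16 library.

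ALAD, which condenses aminolevulinate to the pyrrole porphobilinogen, lies on chromosome 2 (10262221 to 10269457, plus strand). ALAD stood at 52.0, 45.1 and 88.8 FPKM in Ujumqin day 16 libraries and at 34.1, 30.2 and 26.2 in Hulunbuir. By day 25 its levels were 35.0, 33.7 and 33.4 FPKM in Ujumqin and 137, 152 and 142 in Hulunbuir. The breeds did not overlap at either age, and Ujumqin day 25 overlapped Hulunbuir day 16. At day 16 Hulunbuir minus Ujumqin was -1.09 ± 0.30 (adjusted p = 0.138). ALAD was 3.36-fold higher in Hulunbuir at day 25 (1.75 ± 0.08, adjusted p = 3.11e-06), and rose 4.22-fold with age in that breed (2.08 ± 0.23, adjusted p = 8.67e-05). In Ujumqin it fell by 0.71 ± 0.22 (adjusted p = 0.014), a call that was lost without replicate 3 of day 16 (-0.41, adjusted p = 0.06).

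UROS, which closes the chain of pyrroles to a ring, lies on chromosome 22 (44222876 to 44246531, minus strand) and had the lowest mean of the enzymes in both groups of day 16. UROS stood at 14.0, 15.1 and 20.1 FPKM in Ujumqin and at 6.63, 8.07 and 7.15 in Hulunbuir libraries of day 16. Those of day 25 held 13.5, 17.0 and 18.7 FPKM in Ujumqin and 39.9, 45.55 and 42.1 in Hulunbuir. The Ujumqin libraries of the 2 ages overlapped, with Hulunbuir below them at day 16 and above them at day 25. The breed value at day 16 was -1.23 ± 0.26 (adjusted p = 0.112). UROS was 2.05-fold higher in Hulunbuir at day 25 (1.04 ± 0.15, adjusted p = 0.000811), and rose 5.17-fold with age in that breed (2.37 ± 0.21, adjusted p = 2.82e-05). In Ujumqin the age value was 0.15 ± 0.20 (adjusted p = 0.522).

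UROD, which trims the acetate side chains of the ring, lies on chromosome 1 (19436350 to 19439595, plus strand). Its day 16 levels were 65.9, 60.6 and 102 FPKM in Ujumqin and 55.1, 54.97 and 40.3 in Hulunbuir. Its day 25 levels were 71.7, 75.9 and 76.85 FPKM in Ujumqin and 185, 192 and 187.5 in Hulunbuir. The pattern was that of UROS on a smaller scale, with the Ujumqin libraries of the 2 ages overlapping between the 2 Hulunbuir groups. The breed value at day 16, -0.65 ± 0.29 (adjusted p = 0.259), did not pass with the block either (adjusted p = 0.266) or with 1 shared spread (adjusted p = 0.0625). The day 25 value was 1.001 ± 0.08 (adjusted p = 6.64e-05). UROD rose 3.30-fold with age in Hulunbuir (1.72 ± 0.22, adjusted p = 0.000195), and its age value in Ujumqin was 0.13 ± 0.21 (adjusted p = 0.623).

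CPOX, which oxidises coproporphyrinogen in the space between the mitochondrial membranes, lies on chromosome 1 (161340154 to 161353516, minus strand) and had another order of groups. CPOX was at 74.4, 53.3 and 202 FPKM in Ujumqin and at 32.1, 23.7 and 33.85 in Hulunbuir embryos of day 16. Older embryos had 13.0, 10.7 and 9.68 FPKM in Ujumqin and 52.3, 51.1 and 53.9 in Hulunbuir. Its highest group was Ujumqin day 16, which overlapped Hulunbuir day 25, and its lowest was Ujumqin day 25. The day 16 difference was -1.94 ± 0.47 (adjusted p = 0.124), or -1.22 without replicate 3 of Ujumqin (adjusted p = 0.0561). The day 25 difference was 1.91 ± 0.10 (adjusted p = 6.75e-06). CPOX fell by 3.14 ± 0.38 with age in Ujumqin (adjusted p = 4.03e-05), the largest fall of the enzymes, and without replicate 3 of day 16 the value was -2.42. In Hulunbuir its age value was 0.67 ± 0.35 (adjusted p = 0.149), with each day 25 library above each day 16 library. It passed when the 6 Hulunbuir libraries were fitted alone (0.70, adjusted p = 0.00683).

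FECH, which places iron in the finished ring, lies on chromosome 23 (57003314 to 57033696, minus strand). At day 16 FECH was at 30.4, 22.6 and 72.0 FPKM in Ujumqin and at 7.93, 6.91 and 11.3 in Hulunbuir. At day 25 FECH was at 12.4, 9.72 and 6.52 FPKM in Ujumqin and at 61.5, 64.15 and 64.6 in Hulunbuir. Ujumqin day 25 libraries were as low as those of Hulunbuir day 16, while the 2 higher groups overlapped through replicate 3 of Ujumqin day 16. Hulunbuir minus Ujumqin at day 16 was -2.33 ± 0.42 (adjusted p = 0.1), and passed with the replicate block (adjusted p = 0.0456). FECH was 5.33-fold higher in Hulunbuir at day 25 (2.41 ± 0.18, adjusted p = 3.86e-05), and rose 6.62-fold with age in that breed (2.73 ± 0.36, adjusted p = 0.000232). In Ujumqin it fell by 1.97 ± 0.35 (adjusted p = 0.000545), or by 1.38 without replicate 3 of day 16 (adjusted p = 0.000377).

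Set against UROD in the same library, the mitochondrial enzymes CPOX and FECH did not keep a constant proportion. The ratio of CPOX to UROD FPKM was 1.13, 0.88 and 1.98 in Ujumqin day 16 libraries and 0.181, 0.141 and 0.126 in Ujumqin day 25 libraries. In Hulunbuir it was 0.583, 0.431 and 0.840 at day 16 and 0.282, 0.266 and 0.287 at day 25. The day 16 ratios were thus above the day 25 ratios in both breeds. The ratio of FECH to UROD was 0.374 to 0.705 in Ujumqin and 0.126 to 0.281 in Hulunbuir at day 16, and 0.0848 to 0.173 and 0.332 to 0.345 at day 25.

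**Figure D4:**
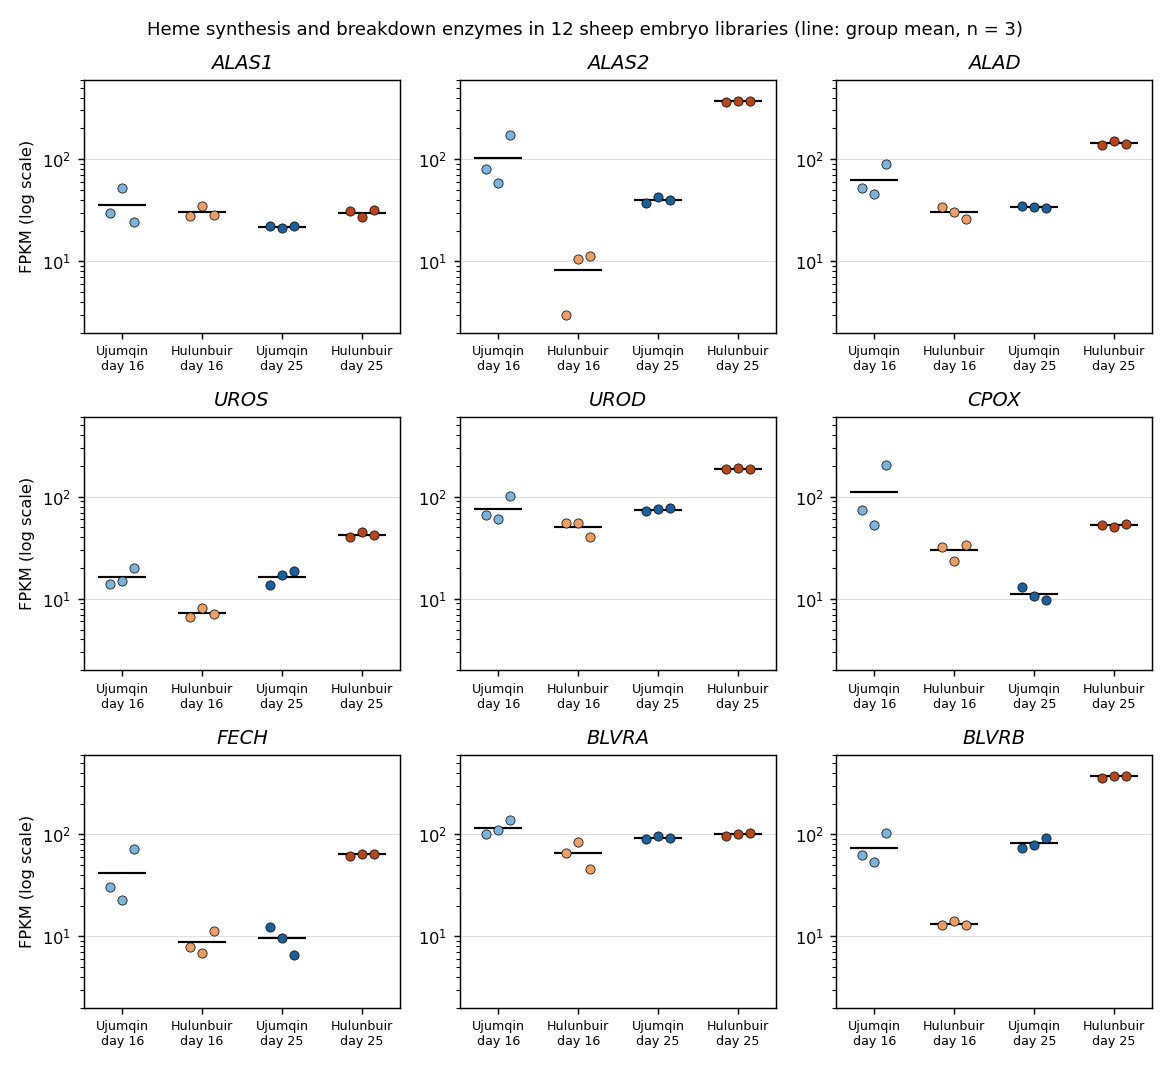
FPKM (log axis) of each of the 9 enzymes in the 12 libraries (points), by group, with group means (lines). ALAS2 and BLVRB span the widest range, ALAS1 and BLVRA stay within a narrow band, and CPOX has its highest mean in Ujumqin day 16 libraries.

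BLVRA, which reduces the alpha isomer of biliverdin and is found in most tissues, lies on chromosome 4 (77331607 to 77368398, minus strand). BLVRA was at 101, 109 and 139 FPKM in Ujumqin and at 65.9, 84.4 and 46.2 in Hulunbuir at day 16. The older libraries held 90.7, 95.7 and 91.8 FPKM in Ujumqin and 96.5, 99.9 and 103 in Hulunbuir. The Hulunbuir day 16 libraries were the lowest, and at day 25 those of Hulunbuir were just above those of Ujumqin in FPKM. Its breed value at day 16 was -0.86 ± 0.32 (adjusted p = 0.208). At day 25 the count fit called BLVRA lower in Hulunbuir (-0.22 ± 0.08, adjusted p = 0.0441), while on log2(FPKM + 1) the value was 0.10 (adjusted p = 0.167), so its direction depends on the scaling. The call was lost without replicate 2 or 3 of Ujumqin or replicate 1, 2 or 3 of Hulunbuir day 25 (adjusted p = 0.0955 to 0.162). Of the 13 alternative fits of this comparison, which include these, 9 did not call BLVRA. The age values were -0.18 ± 0.24 in Ujumqin (adjusted p = 0.53) and 0.40 ± 0.25 in Hulunbuir (adjusted p = 0.209), and the interaction was 0.58 ± 0.35 (adjusted p = 0.25). Without replicate 2 of Hulunbuir day 16 the Hulunbuir age value (0.76, adjusted p = 0.0126) and the interaction (0.98, adjusted p = 0.025) passed.

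BLVRB, which reduces the beta isomer of biliverdin, a product typical of fetal life, and also acts as a flavin reductase in red cells, lies on chromosome 14 (48926673 to 48944336, minus strand). At day 16 BLVRB was at 62.6, 53.6 and 104 FPKM in Ujumqin and at 13.05, 14.1 and 12.9 in Hulunbuir. At day 25 BLVRB was at 74.0, 78.7 and 92.6 FPKM in Ujumqin and at 359, 371 and 376 in Hulunbuir. The Ujumqin libraries of both ages overlapped, the Hulunbuir day 16 libraries were far below them and the Hulunbuir day 25 libraries far above. The day 16 difference was -2.50 ± 0.30 (adjusted p = 0.1), and it passed with the replicate block (adjusted p = 0.0432) and with 1 shared spread (adjusted p = 0.000583). BLVRB was 3.58-fold higher in Hulunbuir at day 25 (1.84 ± 0.11, adjusted p = 1.62e-05). It rose 24.5-fold with age in Hulunbuir (4.61 ± 0.25, adjusted p = 3.49e-06). In Ujumqin the age value was 0.32 ± 0.21 (adjusted p = 0.21), which passed without replicate 3 of day 16 (0.60, adjusted p = 0.0141).

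The BLVRB share of the summed FPKM of both reductases was 38.2%, 32.9% and 42.7% in Ujumqin and 16.5%, 14.3% and 21.9% in Hulunbuir at day 16. By day 25 the share was 44.9%, 45.1% and 50.2% in Ujumqin and 78.8%, 78.8% and 78.6% in Hulunbuir. BLVRB was thus the more abundant reductase transcript in each Hulunbuir day 25 library and in replicate 3 of Ujumqin day 25. In all 4 comparisons of this share the libraries did not overlap, and exact two-sided permutation tests gave p = 0.1, the smallest possible (adjusted p = 0.114).

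Within each group the order of the FPKM levels differed. In Hulunbuir day 25 embryos BLVRB (369 ± 8.98 FPKM, SD, n = 3) and ALAS2 led and did not differ beyond their spread. They were followed, each apart from the next, by UROD, ALAD, BLVRA, FECH, CPOX, UROS and ALAS1. In Hulunbuir day 16 embryos BLVRA (65.5 ± 19.1) and UROD (50.1 ± 8.51) led, and FECH, ALAS2 and UROS were lowest and overlapped. In Ujumqin day 16 embryos each neighbour in the order overlapped except ALAS1 and UROS at its end. In Ujumqin day 25 embryos BLVRA (92.7 ± 2.64), BLVRB and UROD led, and CPOX and FECH (9.55 ± 2.95) were lowest and overlapped.

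For each enzyme the genes with the nearest course over the 12 libraries were looked up among 8798 genes with a symbol and a mean of at least 5 FPKM, by the root mean square difference of centred log2(CPM + 1). For ALAS2 these were the red cell transcription factor gene GATA1 (0.347), the red cell membrane gene RHAG (0.354) and AHSP (0.367), which encodes a chaperone of alpha globin. ALAS2 itself had a spread of 2.03 on that scale. For BLVRB they were DUSP26 (0.184), SERPIND1 (0.368) and NFE2 (0.389), beside its own spread of 1.61. UROS and UROD were the closest pair of enzymes (0.267), and TMEM14C was among the 3 nearest genes of both ALAD (0.252) and UROS (0.252). Nearest to CPOX were UBXN2B (0.424), ABCB10 (0.43) and MAOB (0.461), beside its own spread of 1.107. For FECH, with a spread of 1.184, the nearest were GRAP2 (0.342), SLC39A8 (0.351) and ENDOD1 (0.385). For UROD, with a spread of 0.665, they were ATG4D (0.177), TXNRD2 (0.233) and HBQ1 (0.234). ALAS1, whose spread was only 0.35, was nearest to B4GALT3 (0.138), SPHK2 (0.15) and TMEM106C (0.165). BLVRA, with a spread of 0.441, was nearest to IFNGR2 (0.162), TTC9 (0.17) and GAS2L1 (0.202). A gene that varies less can have smaller differences, so these values do not rank the enzymes. The libraries behind these values share breed, age and depth.

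Further enzymes of the pathway were read in the same way. PPOX, the last oxidase before FECH, was at 15.7, 16.0 and 35.9 FPKM in Ujumqin and at 16.3, 23.1 and 19.2 in Hulunbuir at day 16. In day 25 libraries PPOX was at 39.85, 35.8 and 33.65 FPKM in Ujumqin and at 71.6, 77.7 and 73.7 in Hulunbuir. The breeds overlapped at day 16 and were apart at day 25. PPOX was higher in Hulunbuir at day 25 (0.70, adjusted p = 0.000197), and rose with age in Hulunbuir (1.75, adjusted p = 0.000814) and in Ujumqin (0.85, adjusted p = 0.0195). HMOX1, the inducible heme oxygenase, was at 60.3, 54.7 and 36.5 FPKM in Ujumqin day 16 libraries and between 7.97 and 19.25 in the other 9. It fell with age in Ujumqin (-2.21, adjusted p = 7.68e-05), and its day 25 breed difference was 0.45 (adjusted p = 0.0571). HMOX1 had a positive interaction (2.67, adjusted p = 0.00225), that of PPOX was 0.89 (adjusted p = 0.128), and HMOX2 passed no test.

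Of 16 genes that carry heme, its precursors or iron for heme synthesis, 14 were in the table and tested. At day 25, 10 of the 14 were higher in Hulunbuir, 3 were lower and 1 was not called. Over all genes tested, 23.3% were higher and 22.7% lower. The highest ranking of the 14 were ABCB10, a transporter of the inner mitochondrial membrane (2.06, adjusted p = 4.68e-06), and SLC25A37, the mitochondrial iron importer mitoferrin-1 of red cell precursors (1.71, adjusted p = 6.21e-06). SLC25A28, the mitoferrin of other tissues, was lower (-0.77, adjusted p = 0.000259), as was the heme-binding protein gene HEBP2 (-0.61, adjusted p = 0.00608). In Hulunbuir, 8 rose with age and 2 fell, where 18.9% and 21.6% of all genes did. The rises were led by TMEM14C, which encodes a carrier of the late porphyrin precursor (2.26, adjusted p = 1.76e-05), and HEBP1 (2.65, adjusted p = 2.19e-05). In Ujumqin, 1 rose (SLC25A28, 1.63) and 8 fell, where 30.7% and 32.9% of all genes did. The heme exporter gene FLVCR1 (-3.04, adjusted p = 9.81e-05) was among those of the list that fell. The interaction was positive for 9 and negative for 0, where it was for 8.89% and 10.3% of all genes. No gene of the list was called at day 16 (median -0.94).

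Of 11 genes that control ALAS enzymes or sense heme and iron, 11 were tested, and 6 were higher and 2 lower in Hulunbuir at day 25, where 23.3% and 22.7% of all genes were. EIF2AK1, the kinase that slows translation when heme is short, was higher (0.83, adjusted p = 6.66e-05), and so was IREB2 (0.42, adjusted p = 0.00792), an iron regulatory protein that binds ALAS2 mRNA. NFE2L2, an oxidative stress factor, was lower (-0.47, adjusted p = 0.00115). With age 8 fell and 1 rose in Ujumqin, where 32.9% of all genes fell and 30.7% rose. In Hulunbuir 4 fell and 1 rose, where 21.6% and 18.9% did. IREB2 (-1.76, adjusted p = 2.95e-05) and its relative ACO1 (-1.72, adjusted p = 9.13e-05) led the falls in Ujumqin. ACO1 (-1.01) and PPARGC1A (-2.47), a coactivator known to induce ALAS1, led them in Hulunbuir. The level of PPARGC1A there was low, with means of 1.17 FPKM at day 16 and 0.23 FPKM at day 25. SUCLG1, a subunit of the succinyl-CoA ligase, rose in both breeds (0.62 and 0.86). The interaction was positive for 3, EIF2AK1 (1.199) and CLPX (0.99) among them, and negative for 0. Over all genes it was positive for 8.89% and negative for 10.3%.

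Of 28 markers of red cell precursors (erythroid markers), 22 were found and 21 tested. At day 25, 20 were higher in Hulunbuir and 0 lower, where 23.3% and 22.7% of all genes were. With age 19 rose and 0 fell in Hulunbuir, where 18.9% and 21.6% of all genes did. In Ujumqin 5 rose and 10 fell with age, where 30.7% and 32.9% did. At day 16 no erythroid marker was called. Hulunbuir libraries were below all Ujumqin libraries for 17, a pattern found in 13.2% of all genes tested. The median changes of the markers were -3.07 and 2.58 between breeds at day 16 and day 25, and -1.199 and 4.41 with age in Ujumqin and Hulunbuir embryos. At day 16 the summed FPKM of the 22 ranged from 966 to 4276 in Ujumqin and from 116 to 199 in Hulunbuir. At day 25 it ranged from 2052 to 2563 in Ujumqin and from 16580 to 19430 in Hulunbuir. Most of each day 25 sum was the embryonic globin gene HBZ, at 1724 to 2233 FPKM in Ujumqin and 14620 to 17460 FPKM in Hulunbuir. TSPO2 was at 0 in all libraries. HBZ (87.1 ± 31.1 FPKM) and GATA1 (2.86 ± 1.23 FPKM) were above 0 in the Hulunbuir day 16 group, where they were lowest. The part of these markers in the enzyme results was not tested.

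**Figure D5:**
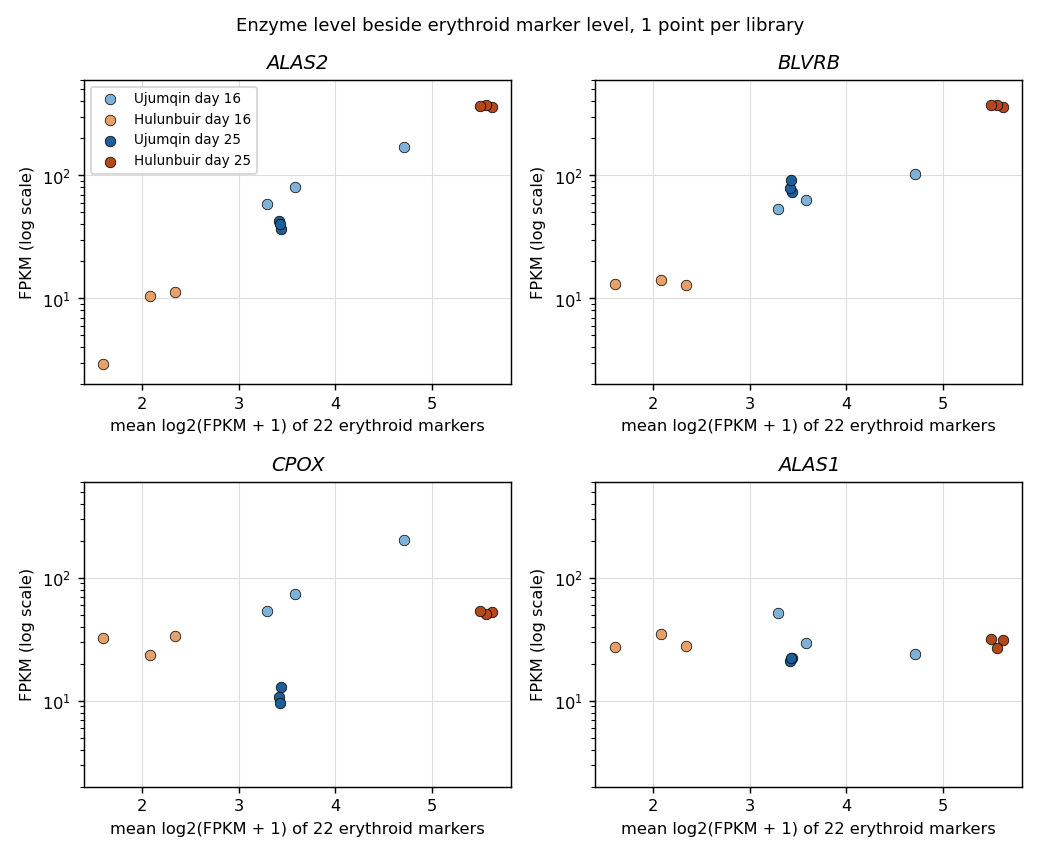
FPKM (log axis) of ALAS2, BLVRB, CPOX and ALAS1 against the mean log2(FPKM + 1) of 22 erythroid markers, with 1 point per library coloured by group. Hulunbuir day 16 libraries have the lowest marker means (1.60 to 2.34) and Hulunbuir day 25 libraries the highest (5.50 to 5.62). CPOX is lower in Ujumqin day 25 libraries (marker means 3.42 to 3.44) than in those of Ujumqin day 16 (marker means 3.58, 3.29 and 4.71).

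Relative to HBZ, the FPKM of ALAS2 was lower in each day 25 library than in each day 16 library. How reads shared between globin copies were counted is not given in the sources. Its FPKM was 9.35%, 8.27% and 5.23% of that of HBZ in Ujumqin and 5.39%, 9.03% and 12.7% in Hulunbuir at day 16, with overlapping breeds. The day 25 values were 2.14%, 1.91% and 1.88% in Ujumqin and 2.48%, 2.13% and 2.47% in Hulunbuir.

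Other cell types were read from their markers in the same way, and their part in the enzyme results was not tested either. Of 17 yolk sac and liver markers, 14 were higher in Hulunbuir at day 25 and 1 lower, where 23.3% and 22.7% of all genes were. At day 16, 14 had Hulunbuir libraries below all Ujumqin libraries, a pattern found in 13.2% of all genes tested, and none was called. With age 13 fell and 1 rose in Ujumqin, where 32.9% and 30.7% of all genes did. In Hulunbuir 2 fell and 6 rose, where 21.6% and 18.9% did. The summed FPKM of the 17 was 28750 to 65540 in Ujumqin and 5426 to 17220 in Hulunbuir at day 16, and 6634 to 10070 and 22090 to 23700 at day 25. Of 9 leukocyte markers tested, 5 were higher and 1 lower in Hulunbuir at day 25, with summed FPKM of the 13 found between 9.43 and 73.9 over all libraries. Of 10 trophoblast markers, 5 were lower in Hulunbuir at day 25, 8 fell with age in Ujumqin and 5 in Hulunbuir. Their sums were 1708 to 5572 FPKM at day 16 and 321 to 562 FPKM at day 25. Much of these sums was the keratin gene KRT8, with means of 2139 (Ujumqin) and 2907 (Hulunbuir) FPKM at day 16, and 339 and 265 at day 25. The mean log2(FPKM + 1) of the 10 ran from 3.94 to 6.38 in Ujumqin and from 3.91 to 4.88 in Hulunbuir at day 16. The 5 endometrium markers found summed to at most 13.7 FPKM, with PGR at 0 in all libraries.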

How the data were processed

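The deposited table holds a count and an FPKM value per gene and library, per the file headers. The authors' counts are raw whole numbers, and the deposited FPKM values are scaled by gene length and library. Per the submitters' processing notes, cutadapt 1.9 and FastQC were used, with the Oar_v3.1 genome. Not given in the sources used here: the aligner, the counter, the FPKM program, strand use and if counts are of reads or pairs. No other listed gene overlaps the span of an enzyme. Columns were matched to samples by name, with 0 left over.

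Genes with an FPKM of at least 1 in at least 3 libraries (14595) were tested with edgeR 4.0.16 in R 4.3.3 (TMM, quasi-likelihood, two-sided, Benjamini-Hochberg over all 14595, threshold 0.05). Breed was tested in the 6 libraries of each age, because their spread differs, and age and interaction in all 12 with 4 group means. Standard errors were taken as |log2 change| over the root of the F statistic. The floor of 3 counts is 0.0539 to 0.112 CPM and covers counting error only. Alternatives were DESeq2 1.42.0, RLE factors, no filter, limma 3.58.1 on log2(FPKM + 1), voom with group weights, a replicate block, other sets of libraries and leaving out each library. Replicates of a group had Pearson r of 0.913 to 0.992 and differed by more than sampling noise (chi-square per degree of freedom 17.8 to 654).

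Replicate numbers in the labels paired the day 16 breed samples by their deviations from the group means (correlations 0.195, 0.322 and 0.383), and the blocked value is given where it changes a call.

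The enzymes and the 10 lists (119 symbols, 108 found, 8 of them through NCBI gene numbers in the RefSeq table of ARS-UI_Ramb_v3.0, used for names alone) were chosen with earlier results of these data known. Named genes were each enzyme, up to 2 called genes per list and direction with the smallest adjusted p, up to 2 uncalled with the highest mean FPKM, and the 3 nearest genes by course. The levels of HMOX1 in each library and the position of replicate 3 of Ujumqin day 16 were chosen after their values were seen. Some results are left out here. The fits were tested on simulated counts in which 200 genes per comparison were changed. Of 2-fold and 4-fold changes, the breed fit recovered 0% and 18% at day 16 and 66% and 83% at day 25. The age fits recovered 14% and 58% in Ujumqin and 14% and 65% in Hulunbuir, and the interaction fit 5% and 30%. False calls were 2 of 20, 12 of 161, 7 of 79, 11 of 90 and 2 of 37 calls, in the same order.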

Additional observations from a re-analysis of the deposited data

Results flagged for a closer look

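For 7 enzymes the breed difference at day 25 differed from that at day 16 by the interaction test over 12 libraries (edgeR, adjusted over all genes). The interaction on the log2 scale was 6.52 for ALAS2 (adjusted p = 0.000437) and 4.70 for FECH (adjusted p = 0.000473). It was 4.30 for BLVRB (adjusted p = 0.000139) and 3.81 for CPOX (adjusted p = 0.00129). It was 2.79 for ALAD (adjusted p = 0.000567), 2.22 for UROS (adjusted p = 0.0012) and 1.60 for UROD (adjusted p = 0.00613). In each of the 7 all Hulunbuir libraries were below all Ujumqin libraries at day 16 and above them at day 25 after TMM scaling. The day 16 pattern was found in 13.2% of all genes tested. The share of all genes with the day 25 pattern, or with both, was not counted. Groups of 3 libraries were not tested for single outlying samples.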

How the results depend on the processing

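Of 630 pairs of an enzyme (BLVRA included) and an alternative, 580 kept direction and call, 32 gained a call, 13 lost it and 5 changed sign. Without single libraries, values that did not pass changed sign for ALAS1 at day 16 (-0.525 to 0.123, positive without Ujumqin day 16 replicate 2), ALAS1 with age in Hulunbuir (-0.325 to 0.057, positive without Hulunbuir day 16 replicate 2), UROS with age in Ujumqin (-0.006 to 0.279, negative without Ujumqin day 25 replicate 3) and ALAS1 in the interaction (-0.044 to 0.659, negative without Ujumqin day 16 replicate 2). BLVRA at day 25 was 0.104 by limma on log2(FPKM + 1). The causes were not tested. At day 16, where 0 of the 8 enzymes and 3 genes were called, DESeq2 called 6 and 1608, voom 5 and 487, the paired fit with a replicate block 3 and 293, and 12 libraries sharing 1 spread 6 and 2459, while limma on log2(FPKM + 1) called 0 genes. Leaving out single libraries gave 0 to 2 enzymes and 0 to 200 genes. At day 25, 6716 genes were called, or 2440 with 12 libraries, and the interaction's 2804 ranged from 1561 to 3337 without single libraries. On log2(FPKM + 1) the split of higher and lower genes was 6217 and 1495 at day 25 (3397 and 3319 by counts), 3805 and 2131 for age in Hulunbuir (2758 and 3155) and 2203 and 772 for the interaction (1298 and 1506). Without the FPKM filter the interaction gave 1288 and 1000. The replicate block changed no other call of an enzyme. In the age comparisons samples of the same number had correlations of -0.107 to 0.124. Between breeds at day 25 these were 0.0523, 0.0682 and 0.0411, smaller than at day 16. With 3 libraries a group and a wide day 16 spread, a day 16 value that did not pass does not show that the breeds were alike.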

Other observations

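Heme also leaves this pathway for cytochromes, and its iron step competes with iron-sulfur cluster assembly in the same compartment. Of 3 genes of heme A and cytochrome c assembly, COX15 (0.63, adjusted p = 0.00626) and COX10 (0.66, adjusted p = 0.0321), which turn heme into heme A, were higher in Hulunbuir at day 25 by edgeR. All 3 fell with age in Ujumqin, COX15 by 1.21 and COX10 by 1.53 on the log2 scale, and these 2 also fell in Hulunbuir, by 0.81 and 0.73. Over all genes 23.3% were higher in Hulunbuir at day 25, and 32.9% and 21.6% fell with age in Ujumqin and Hulunbuir. None of the 3 had an interaction past the threshold.

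Of 9 iron-sulfur cluster genes tested, out of 11 listed, 4 were higher and 4 lower in Hulunbuir at day 25, where 23.3% and 22.7% of all genes were. GLRX5, which encodes a mitochondrial glutaredoxin, was among the higher (0.48, adjusted p = 0.00217). The co-chaperone gene HSCB (-0.63, adjusted p = 0.000933) and the ferredoxin gene FDX2 (-0.50, adjusted p = 0.00944) were lower. In Hulunbuir 7 rose with age and 0 fell, where 18.9% and 21.6% of all genes did. In Ujumqin 4 rose and 1 fell, where 30.7% and 32.9% did. The scaffold gene ISCU rose in both breeds (0.96 in Ujumqin and 1.197 in Hulunbuir). The interaction was positive for ISCA1 (0.87) and GLRX5 (1.08) and for no other gene of this list, where it was for 8.89% of all genes.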
